A study of Homo sapiens with 9 samples.

Results

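The 38 genes described here encode the enzymes that polymerise, epimerise and sulfate the sugar chains of heparan sulfate (HS) and of chondroitin and dermatan sulfate (CS and DS), the endosulfatases that edit HS, and the synthases of the sulfate donor PAPS. They were chosen by gene symbol, and all 38 were found among the 20379 genes listed in the expression table. The cells were HCCLM3, a human hepatocellular carcinoma line. They received 1 of 3 siRNA treatments: a non-targeting siRNA (siRNA-NC), an siRNA against UXS1, or an siRNA against MRPL42. Each group had 3 libraries of poly(A) RNA, named a, b and c by the columns of the table. UXS1 makes UDP-xylose, the sugar nucleotide that starts every HS and CS chain on its core protein, and MRPL42 is a subunit of the mitochondrial ribosome. The sources used here gave no doses, transfection times or siRNA sequences. The labels call the libraries repeats without naming separate cultures, so the p-values cover the spread among these libraries alone, and that spread may be technical. In such bulk libraries, fewer cells of a kind and less RNA per cell cannot be told apart.

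Both chain types grow on a shared tetrasaccharide linker. In HS, exostosins alternate glucuronic acid and N-acetylglucosamine, N-deacetylase/N-sulfotransferases open the chain to modification, and an epimerase and O-sulfotransferases then act in sequence to create binding sites for growth factors and antithrombin. In CS, the alternating sugar is N-acetylgalactosamine, sulfation is mainly on its 4-O and 6-O positions, and epimerisation turns CS into DS. All sulfotransferases use PAPS. Liver is known for highly sulfated HS, and altered HS editing is a known feature of liver cancer.

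The estimated counts of a library summed to between 15265959 and 22400560. Of the 38 enzymes, 28 had enough counts to be tested, among 12657 genes in all, and 10 did not. Epithelial keratin KRT8 lay between 4196 and 6481 CPM (counts per 1000000), and the liver regulator HNF4A between 52.8 and 111 CPM, whereas albumin (ALB) did not exceed 14.4 CPM and TTR was at trace level. The stromal gene THY1 and the endothelial gene CDH5 had no count in any library. Control library c stood apart. Its Pearson correlations with the other 8 libraries over log2 CPM were 0.961 to 0.972, and all other pairs reached at least 0.987. In it LUM, a stromal proteoglycan, was at 277 CPM against 35.4 to 44.0 CPM in the other 8 libraries, the fibrinogen gene FGB was at 1.59 CPM against 31.0 to 39.7 CPM, and the endothelial receptor KDR was at 3.98 CPM against 25.0 to 36.9 CPM. Summed as CPM per kilobase of transcript, the 8 fibroblast and stellate markers were at 103.9 in that library and 20.2 to 23.8 in the others, the 6 endothelial markers at 3.66 against 9.16 to 11.5, the 7 leukocyte markers at 1.15 against 4.54 to 7.22, and the 13 hepatocyte and hepatocellular markers at 4088 against 3250.0 to 4670.0. LUM carried 91.95 of the stromal sum in that library, and the tested stromal collagen COL3A1 was lower there, at 0.265 CPM against 0.453 to 1.29 CPM. Only 3 of the 8 stromal markers had enough counts to be tested. The hepatocyte sum is weighted to its most abundant genes. Taken gene by gene, as log2(CPM + 0.5) minus the gene's mean over the 9 libraries, the 11 tested hepatocyte markers averaged -0.45 in control library c. In the other 8 libraries they averaged -0.04 to 0.09. Their median was -0.11 in control library c and -0.06 to 0.12 in the others. The part of these differences in the results below was not tested, and values without control library c are given beside the results below where it moves them.

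The targeted genes come first, as a check of the labels. UXS1 was at 144, 151 and 180 CPM in control libraries a, b and c, at 145, 138 and 141 CPM after UXS1 siRNA, and at 141, 156 and 147 CPM after MRPL42 siRNA. The UXS1 siRNA libraries overlapped the control libraries, and the log2 fold change was -0.17 (95% interval -0.36 to 0.03, edgeR adjusted p = 0.348). Without control library c it was -0.08. MRPL42 was at 100, 118 and 147 CPM in the control, at 131, 115 and 126 CPM after UXS1 siRNA, and at 104, 93.1 and 81.8 CPM after MRPL42 siRNA. Its groups overlapped too, with a log2 fold change of -0.39 between MRPL42 and control siRNA (interval -0.70 to -0.07, adjusted p = 0.185). It was -0.24 (adjusted p = 0.252) once control library c was dropped. Neither target passed the adjusted threshold in its own comparison, so the groups are named by their labels.

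Levels of the enzymes were compared between genes as CPM per kilobase of GENCODE 29 transcript. In the control, 25 of the 38 were above 1 CPM per kilobase. A further 3 (HS3ST1, CHSY3 and DSE) were tested at a lower level, and 6 had no count in any of the 9 libraries. With 3 counts as the upper limit that a count of 0 allows, those 6 were below 0.196 CPM in the shallowest library. Such limits cover counting error only. Exons of CHPF, CHPF2, DSE and SULF2 overlap those of TMEM198, SMARCD3, TSPYL1 and NCOA3 on the opposite strand, by up to 125, 64, 589 and 96 bases. No source names strand in the counting, so reads of such partners cannot be told apart. Exons of HS2ST1, DSE and NDST2 also share up to 239, 272 and 1346 bases with unnamed genes on the same strand.

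**Figure D1:**
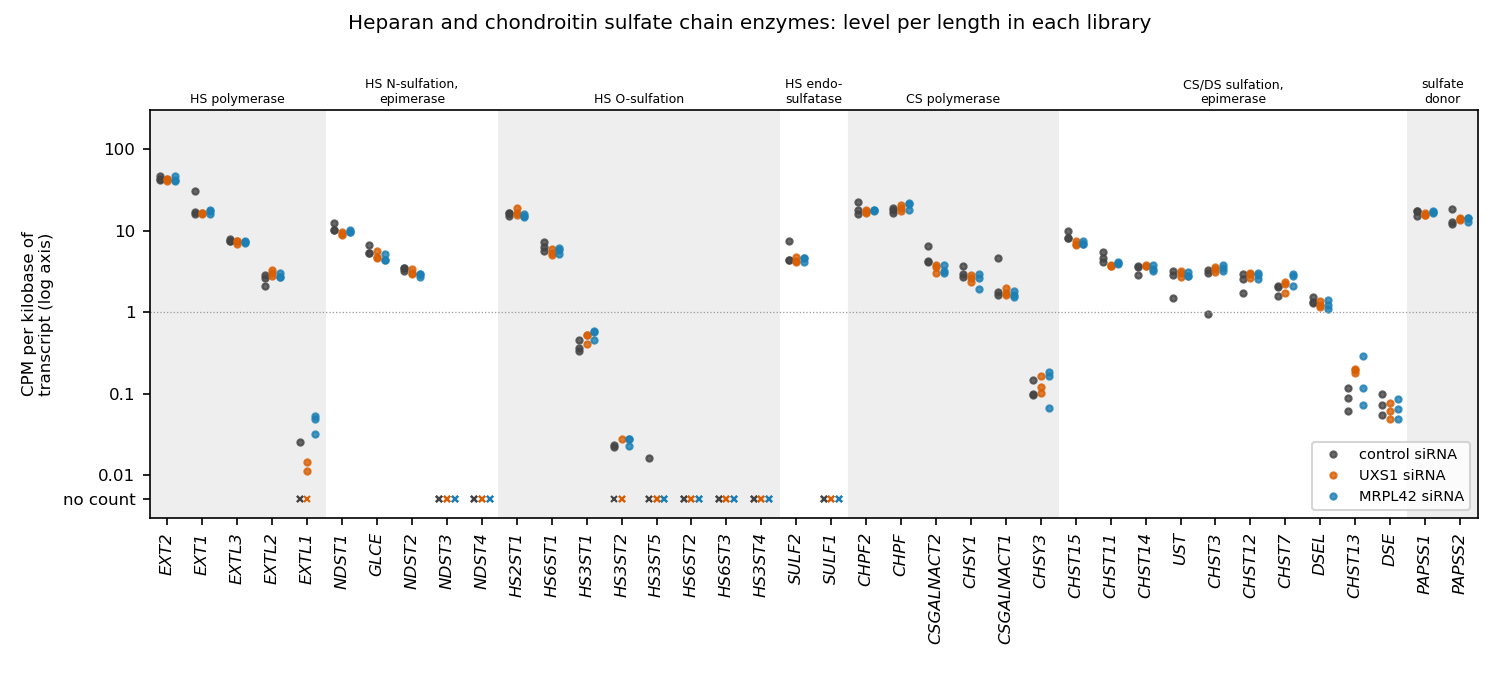
CPM per kilobase of transcript (log axis) of each of the 38 enzymes in each of the 9 libraries, grouped by role and ordered by control level, with crosses for a count of 0 and a dotted line at 1. The plot shows 25 genes above the line by their control mean, and NDST3, NDST4, HS6ST2, HS6ST3, HS3ST4 and SULF1 at 0 throughout.

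The HS copolymerase subunit EXT2 was the most abundant enzyme, at 43.7 ± 2.41 CPM per kilobase in the control (SD, n = 3), a level above that of 86.1% of tested genes. Its partner EXT1 followed at 21.2 ± 8.12, and the control libraries of the pair did not overlap, at 41.8 to 46.4 for EXT2 and 16.2 to 30.6 for EXT1. EXT1 was in place 4 without control library c, below CHPF and CHPF2, and its control libraries overlapped those of both. The order of the pair rests on length: not divided by it, EXT1 was at 176 and EXT2 at 143 CPM. EXT2 was at 140, 137 and 152 CPM in control libraries a, b and c, at 141, 133 and 140 CPM after UXS1 siRNA and at 134, 152 and 137 CPM after MRPL42 siRNA, and its groups overlapped. EXTL3, which adds the first N-acetylglucosamine that commits a linker to HS, was at 7.55 ± 0.290 CPM per kilobase, the smallest SD of the 10 most abundant enzymes. EXTL2, a related transferase that can end chain growth, was at 2.52 ± 0.390. EXTL1 gave 0 to 4 estimated counts per library and was not tested.

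Of the 4 N-deacetylase/N-sulfotransferases, 2 were present. NDST1 was at 11.0 ± 1.33 and NDST2 at 3.37 ± 0.143 CPM per kilobase in the control, and NDST1 made up 73.9% to 79.6% of their sum across all 9 libraries. NDST3 and NDST4 had no count anywhere. GLCE, the epimerase that converts glucuronic to iduronic acid, was at 5.79 ± 0.769.

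Of the O-sulfotransferases, HS2ST1 (the 2-O-sulfotransferase) was at 16.0 ± 0.851 CPM per kilobase, the sixth of the 38 enzymes, and its 15.0 to 16.6 overlapped the control libraries of EXT1, CHPF, CHPF2, PAPSS1 and PAPSS2. HS6ST1 carried all detected 6-O-sulfotransferase mRNA at 6.38 ± 0.765, since HS6ST2 and HS6ST3 had no count. HS6ST1 was at 24.8, 22.2 and 28.2 CPM in control libraries a, b and c, at 20.9, 23.7 and 19.8 CPM after UXS1 siRNA and at 22.9, 20.4 and 24.0 CPM after MRPL42 siRNA, with control c the highest. The 3-O-sulfotransferases complete the antithrombin site and related motifs, and the 4 among the members were scarce. HS3ST1 was at 0.382 ± 0.0612 CPM per kilobase, HS3ST2 gave 0 or 1 count per library, HS3ST5 gave 1 count in control library b alone, and HS3ST4 gave none. Of the endosulfatases, which remove 6-O-sulfates from finished HS at the cell surface, SULF2 was at 5.39 ± 1.78 and SULF1 had no count.

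Because members of the same step were either counted or absent, the 250 bases before the RefSeq start site of 5 of them are shown, from GRCh38.p14, with each CG dinucleotide in capitals. HS6ST1 and NDST2 are the counted genes, and HS6ST2, HS6ST3 and NDST4 are relatives with no count. The windows read 5′ to 3′ along the gene. They lie at chr2:128318869-128319118 (minus strand, HS6ST1), chrX:132961371-132961620 (minus, HS6ST2), chr13:96089857-96090106 (plus, HS6ST3), chr10:73811821-73812070 (minus, NDST2) and chr4:115113621-115113870 (minus, NDST4).
HS6ST1: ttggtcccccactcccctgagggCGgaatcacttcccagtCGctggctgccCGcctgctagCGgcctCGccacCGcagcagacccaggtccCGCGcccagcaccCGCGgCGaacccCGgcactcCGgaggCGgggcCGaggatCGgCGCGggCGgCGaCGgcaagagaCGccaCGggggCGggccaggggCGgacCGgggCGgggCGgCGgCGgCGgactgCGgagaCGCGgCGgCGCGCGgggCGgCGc
HS6ST2: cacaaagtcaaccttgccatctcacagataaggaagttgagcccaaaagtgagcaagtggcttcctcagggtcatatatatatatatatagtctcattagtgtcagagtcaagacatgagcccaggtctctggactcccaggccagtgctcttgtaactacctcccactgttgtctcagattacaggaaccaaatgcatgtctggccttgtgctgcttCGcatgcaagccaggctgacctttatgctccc
HS6ST3: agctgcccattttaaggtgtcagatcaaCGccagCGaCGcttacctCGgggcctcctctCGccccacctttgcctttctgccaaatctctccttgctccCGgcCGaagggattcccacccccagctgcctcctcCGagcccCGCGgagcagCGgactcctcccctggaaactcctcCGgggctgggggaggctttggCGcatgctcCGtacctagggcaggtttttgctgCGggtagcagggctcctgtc
NDST2: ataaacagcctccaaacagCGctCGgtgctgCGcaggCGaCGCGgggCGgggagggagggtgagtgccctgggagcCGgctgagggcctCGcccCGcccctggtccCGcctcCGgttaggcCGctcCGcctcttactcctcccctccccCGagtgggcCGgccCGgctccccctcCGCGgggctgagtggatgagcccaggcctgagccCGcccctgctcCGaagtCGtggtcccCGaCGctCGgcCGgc
NDST4: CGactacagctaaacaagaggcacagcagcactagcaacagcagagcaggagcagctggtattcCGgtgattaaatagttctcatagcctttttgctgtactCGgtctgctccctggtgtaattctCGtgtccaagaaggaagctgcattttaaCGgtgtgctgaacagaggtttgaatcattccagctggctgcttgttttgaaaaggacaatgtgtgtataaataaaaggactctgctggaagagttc
HS6ST1 held 40 CG dinucleotides, HS6ST3 15 and HS6ST2 1, and NDST2 held 26 against 5 in NDST4. The CG dinucleotide reads the same on both strands. RefSeq windows were found for 33 of the 38 members. At least 10 CG dinucleotides stood in 23 of 24 windows of tested members (95.8%; 84.6% of 10174 tested genes with a window) and in 5 of 9 windows of members not tested (55.6%; 39.3% of 5204 other genes). The exception among tested members was NDST1 with 4, whose RefSeq start site lies 11961 bases from the GENCODE start of the gene. That distance was 1891 bases for EXTL1, 1653 for CHST11 and 1156 for EXTL2. Among the genes shown it was 291 bases for HS6ST1, 25 for HS6ST2, 732 for HS6ST3, 22 for NDST2 and 256 for NDST4. HS3ST4, with no count, held 27, so the count of CG dinucleotides did not separate counted from absent members.

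All 6 CS polymerase genes were detected. CHPF2 and CHPF, the polymerising partners of the CHSY proteins, were at 18.9 ± 3.50 and 17.8 ± 1.12 CPM per kilobase in the control, and their control libraries overlapped. CHPF2 was at 70.4, 64.1 and 90.7 CPM in control libraries a, b and c, at 65.6 to 70.9 CPM after UXS1 siRNA and at 69.6 to 71.8 CPM after MRPL42 siRNA, so c alone was high. CHSY1, a bifunctional CS synthase, was at 3.09 ± 0.540 CPM per kilobase, and its paralogue CHSY3 was at 0.114 ± 0.0288 with 4 to 14 counts per library. The N-acetylgalactosaminyltransferases that start CS were CSGALNACT2 at 4.94 ± 1.32 and CSGALNACT1 at 2.68 ± 1.71.

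Of 10 CS and DS sulfation and epimerisation genes, 9 were tested. CHST15, which adds a second sulfate to 4-sulfated CS, led at 8.68 ± 0.992 CPM per kilobase in the control. The 4-O-sulfotransferases CHST11 and CHST12 were at 4.76 ± 0.727 and 2.39 ± 0.628, and CHST13, of the same activity, gave 2 to 8 counts and was not tested. The DS 4-O-sulfotransferase CHST14 was at 3.38 ± 0.424. The 6-O-sulfotransferases CHST3 and CHST7 were at 2.43 ± 1.30 and 1.90 ± 0.284, and UST, the uronyl 2-O-sulfotransferase, was at 2.51 ± 0.908, 3 genes whose control libraries overlapped. Of the DS epimerases, DSEL was at 1.38 ± 0.114 and DSE at 0.0748 ± 0.0213, with no overlap between their control libraries. The PAPS synthases PAPSS1 and PAPSS2 were at 16.8 ± 1.32 and 14.4 ± 3.47.

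The comparison of UXS1 with control siRNA addresses whether mRNA of the chain enzymes differs when the enzyme that supplies UDP-xylose is targeted. None of the 28 tested enzymes passed the adjusted threshold of 0.05 in edgeR's quasi-likelihood test, and 0.0158% of all tested genes did. DESeq2 called 0 members as well, against 3.89% of genes, and limma-voom called 0, against 2 of 12657 genes. At an unadjusted p below 0.05, 4 members were lower (NDST1, CSGALNACT2, CHST11 and CHST15), against 7.37% of all genes, and 0 were higher, against 10.4%. The same 4 were the members whose UXS1 siRNA libraries all lay below all control libraries, a pattern shown by 10.9% of all genes, and 0 members lay wholly above, against 15.3%. The smallest adjusted p of any member was 0.178, so none of the values below passed the test.

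CHST15 (ENSG00000182022, chr10:124007666-124093607, minus strand, hg38) was at 39.0, 39.1 and 47.3 CPM in control libraries a, b and c and at 32.8, 32.2 and 36.0 CPM after UXS1 siRNA. The lowest control library was above the highest UXS1 siRNA library, with control c the highest of all. The log2 fold change was -0.31 ± 0.09 (SE; 95% interval -0.52 to -0.11; unadjusted p = 0.00706, edgeR adjusted p = 0.178). Without control library c it was -0.23 (adjusted p = 0.147).

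CHST11 (ENSG00000171310, chr12:104455295-104762014, plus strand) was at 26.6, 23.3 and 31.6 CPM in the control and at 21.6, 21.2 and 21.1 CPM after UXS1 siRNA. The UXS1 siRNA libraries lay close together, below a control group that spread widely. This gave a log2 fold change of -0.35 ± 0.10 (SE; unadjusted p = 0.00817, edgeR adjusted p = 0.178), and -0.24 without control library c.

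NDST1 (ENSG00000070614, chr5:150485818-150558211, plus strand) was at 81.6, 82.4 and 100 CPM in the control and at 76.6, 72.6 and 70.9 CPM after UXS1 siRNA. Here too the groups did not overlap, and control c was the highest library. Its log2 fold change was -0.27 ± 0.09 (SE; unadjusted p = 0.0127, edgeR adjusted p = 0.195), and -0.17 without control library c. CSGALNACT2 (ENSG00000169826, chr10:43138486-43185308, plus strand) was at 15.6, 15.5 and 24.1 CPM in the control and at 14.2, 11.4 and 13.3 CPM after UXS1 siRNA. Control libraries a and b lay just above the UXS1 siRNA libraries, and c lay far above. The log2 fold change was -0.51 ± 0.18 (SE; unadjusted p = 0.0189, edgeR adjusted p = 0.215), and -0.29 without control library c, over 1.5 times smaller in size.

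Over the 28 members the median log2 fold change for UXS1 siRNA was -0.09, with 10 above 0 and 18 below, beside a median of -0.00 over all tested genes, of which 6201 were above 0. Without control library c the median of the members was -0.03 with 11 above 0. With an offset for transcript length and all libraries it was -0.07. NDST1 was then at -0.18, CHST11 at -0.27, CHST15 at -0.25 and CSGALNACT2 at -0.47. With that offset and without control library c, chosen after seeing the data, the median was 0.02 with 17 above 0. In that setting NDST1 was at -0.11, CHST11 at -0.18, CHST15 at -0.17 and CSGALNACT2 at -0.24. By role, the 3 tested N-sulfation and epimerase genes had a median of -0.21 and all lay below 0, with GLCE at -0.21 and NDST2 at -0.11 beside NDST1. GLCE was at -0.11 and the median of the step was -0.16 without control library c. The 4 HS polymerases had a median of -0.06 (-0.03 without that library), and EXT2 (-0.05, interval -0.21 to 0.10) and EXTL3 (-0.06, interval -0.21 to 0.08) had the narrowest intervals of that step. The 9 CS and DS sulfation genes split, with 5 above 0 and 4 below, and with 4 above and 5 below without that library. Neither PAPS synthase passed, at -0.07 for PAPSS1 (interval -0.23 to 0.09) and -0.06 for PAPSS2 (interval -0.38 to 0.27). PAPSS2 was at 49.9, 48.3 and 72.8 CPM in control libraries a, b and c and at 54.3, 53.6 and 56.6 CPM after UXS1 siRNA, above a and b and below c. With c left out, its log2 fold change was 0.15.

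**Figure D2:**
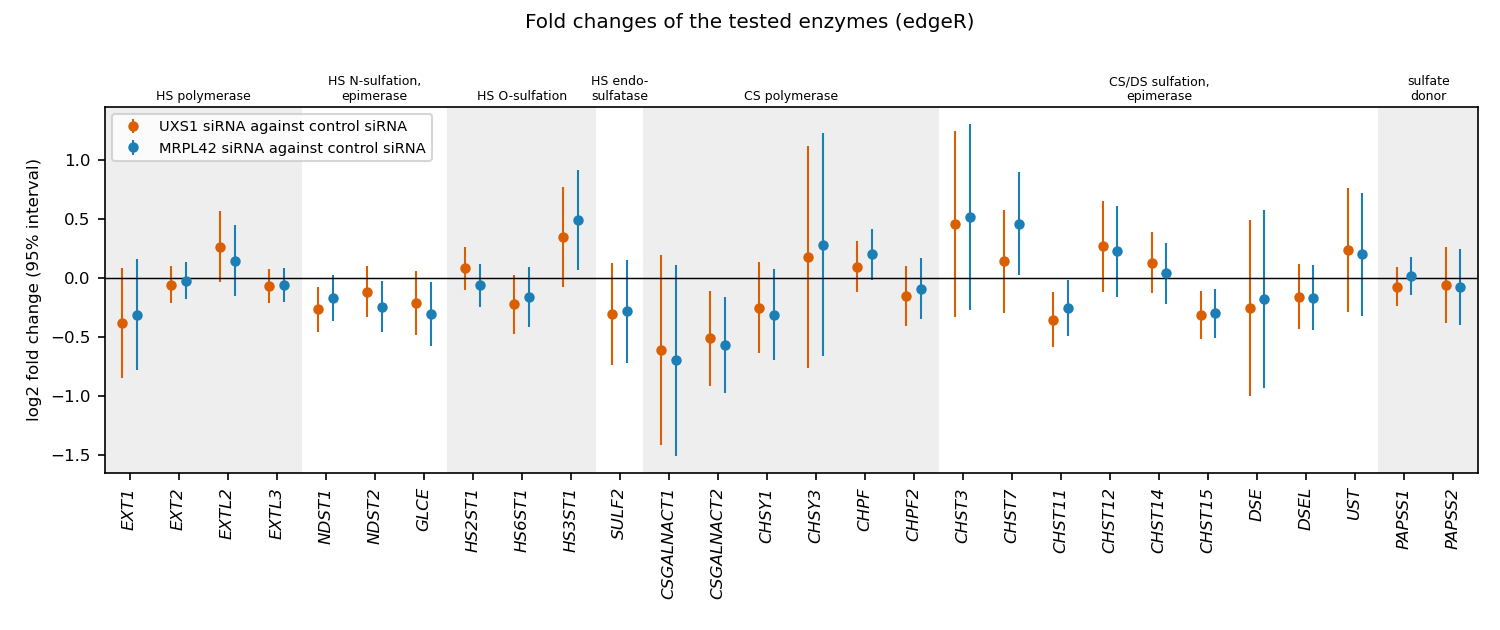
Log2 fold change (edgeR) of the 28 tested enzymes for UXS1 siRNA (orange) and MRPL42 siRNA (blue) against the same 3 control libraries, with bars for 95% intervals without adjustment, grouped by role. Values run from -0.70 for CSGALNACT1 to 0.52 for CHST3, both after MRPL42 siRNA, and the widest intervals belong to CHSY3, CHST3, CSGALNACT1 and DSE.

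MRPL42 siRNA was compared with the same control libraries. Again no member passed the adjusted threshold, and 0% of all tested genes did. DESeq2, which called 6.21% of genes, and limma-voom, which called 0 genes, called 0 members too. Under 2 settings members did pass. With library weights in limma-voom they were CSGALNACT2, CHPF and CHST15, against 15% of genes, and CHST15 for UXS1 siRNA, against 10.4%. Without control library c and MRPL42 library b together they were CSGALNACT2 and CHPF, against 14.6%, and 0 for UXS1 siRNA, against 9.47%. With all libraries CHPF was at a log2 fold change of 0.20 for MRPL42 siRNA (edgeR unadjusted p = 0.0638, adjusted p = 0.268), and its groups overlapped. At an unadjusted p below 0.05, 2 members were higher (HS3ST1 and CHST7), against 11.4% of all genes, and 5 were lower (NDST2, GLCE, CSGALNACT2, CHST11 and CHST15), against 8.83%. The libraries of 1 member (HS3ST1) lay wholly above the control, against 11% of all genes, and those of 5 lay wholly below (NDST1, NDST2, GLCE, CSGALNACT2 and CHST15), against 10.5%.

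CHST15 was at 33.1, 35.7 and 33.2 CPM after MRPL42 siRNA, all below the control libraries listed above. Its log2 fold change was -0.30 ± 0.09 (SE; unadjusted p = 0.00962, edgeR adjusted p = 0.147), and -0.21 without control library c. CSGALNACT2 was at 12.0, 14.0 and 11.3 CPM, also below every control library. Its log2 fold change was -0.57 ± 0.18 (SE; unadjusted p = 0.0113, edgeR adjusted p = 0.152), and -0.34 without control library c, again over 1.5 times smaller in size.

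HS3ST1 (ENSG00000002587, chr4:11393150-11429765, minus strand) was at 3.61, 2.66 and 2.92 CPM in the control, at 4.18, 4.25 and 3.24 CPM after UXS1 siRNA, and at 4.72, 3.62 and 4.59 CPM after MRPL42 siRNA. Control library a and MRPL42 siRNA library b almost met, and the UXS1 siRNA libraries overlapped the control. The log2 fold change was 0.49 ± 0.19 for MRPL42 siRNA (SE; unadjusted p = 0.0272, edgeR adjusted p = 0.201) and 0.35 ± 0.19 for UXS1 siRNA (edgeR adjusted p = 0.364). The gene gave 49 to 95 counts per library.

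GLCE (ENSG00000138604, chr15:69160584-69272217, plus strand) was at 27.0, 26.8 and 33.6 CPM in the control, at 28.2, 23.4 and 24.0 CPM after UXS1 siRNA and at 22.2, 26.3 and 22.3 CPM after MRPL42 siRNA. Only the MRPL42 siRNA libraries lay wholly below the control, with a narrow gap between library b and the nearest control library. The log2 fold change for MRPL42 siRNA was -0.30 ± 0.12 (SE; unadjusted p = 0.0324, edgeR adjusted p = 0.214), and -0.20 without control library c. NDST2, whose exons share up to 1346 bases with an unnamed gene on the same strand, was at 12.6, 12.5 and 11.7 CPM in the control and at 9.69, 10.7 and 10.8 CPM after MRPL42 siRNA, without overlap. Its log2 fold change was -0.24 (edgeR adjusted p = 0.215), and -0.28 without control library c, where c was the lowest control library and not the highest. CHST7, on the X chromosome, was at 4.59, 4.84 and 3.61 CPM in the control, at 3.90, 5.41 and 5.05 CPM after UXS1 siRNA and at 6.40, 4.79 and 6.76 CPM after MRPL42 siRNA. MRPL42 siRNA libraries a and c were the highest, and the groups overlapped (log2 fold change 0.46 for MRPL42 siRNA, edgeR adjusted p = 0.228). Control c was the lowest library for CHST7, and without it the log2 fold change was 0.34 (edgeR adjusted p = 0.333).

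The median over the members for MRPL42 siRNA was -0.08, with 10 above 0, beside -0.01 over all tested genes. Without control library c it was -0.04 with 13 above 0. With the length offset it was -0.02 with all libraries, and 0.04 with 17 above 0 when control library c was also left out. With the offset and all libraries, 2 members were lower at an unadjusted p below 0.05 in edgeR (CSGALNACT2 and CHST15), against 980 of 12657 genes. At that threshold 3 members were higher (HS3ST1, CHPF and CHST7), against 982 genes. The 3 tested genes of the N-sulfation and epimerase step lay below 0, with a median of -0.24 (-0.20 without control library c). NDST1 of that step was at -0.17, and at -0.07 without that library. Since both comparisons use the same 3 control libraries, values on the same side of 0 in both are not independent.

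UXS1 and MRPL42 siRNA libraries were compared directly, which leaves the control libraries out of the difference. The spread behind its intervals and p-values was still estimated over all 9 libraries, control library c included. The common coefficient of variation in edgeR was 0.130 in that fit and 0.0816 with only these 2 groups. No member passed the adjusted threshold, as with 0% of all genes. None passed by DESeq2 or limma-voom, which called 0 genes each. In edgeR with all libraries no member had an unadjusted p below 0.05, against 1.72% of all genes in either direction. The same held for the members without control library c, against 5.35% of all genes. With library weights in limma-voom 1 member was higher at that threshold (HS2ST1) and 2 were lower (CHST7 and CHPF), against 2057 of 12657 genes. The same members were below it in edgeR without control library c and MRPL42 library b together, against 1765 of 12741 genes. The 4 members with the smallest unadjusted p were HS2ST1 (log2 fold change 0.15, interval -0.04 to 0.33), CHST7 (-0.32, interval -0.75 to 0.11), NDST2 (0.13, interval -0.09 to 0.34) and PAPSS1 (-0.09, interval -0.25 to 0.07), each at an edgeR adjusted p of 1.00. HS2ST1 was at 127, 105 and 112 CPM after UXS1 siRNA and at 103, 107 and 100 CPM after MRPL42 siRNA. Its control libraries were at 101, 112 and 111 CPM. UXS1 siRNA library a was the highest of all, and the other libraries overlapped. PAPSS1 was at 42.3, 42.8 and 45.6 CPM after UXS1 siRNA and at 47.3, 46.7 and 45.2 CPM after MRPL42 siRNA, groups that overlapped narrowly, and its control libraries were at 41.6, 48.2 and 47.5 CPM. NDST2 was at 12.3, 10.7 and 11.1 CPM after UXS1 siRNA, overlapping the MRPL42 siRNA values given above. No member lay wholly higher after UXS1 than after MRPL42 siRNA, against 5.79% of all genes. NDST1 and CHST11 lay wholly lower, against 4.31% of all genes, by log2 fold changes of -0.10 each (intervals -0.29 to 0.09 and -0.33 to 0.14). The median over the members was -0.02, with 12 of 28 above 0.

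Much of the variation among the 28 tested members lay in control library c. It was the highest of the 9 libraries for 15 members, against 31.6% of all genes, and the lowest for 6, against 31.9%. It lay over 1.5-fold outside the range of the other 8 libraries for 6 members, against 10.4% of all genes, and no other library did so for any member. High in it were EXT1, SULF2, CSGALNACT1 and CSGALNACT2, and low were CHST3 and UST.

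**Figure D3:**
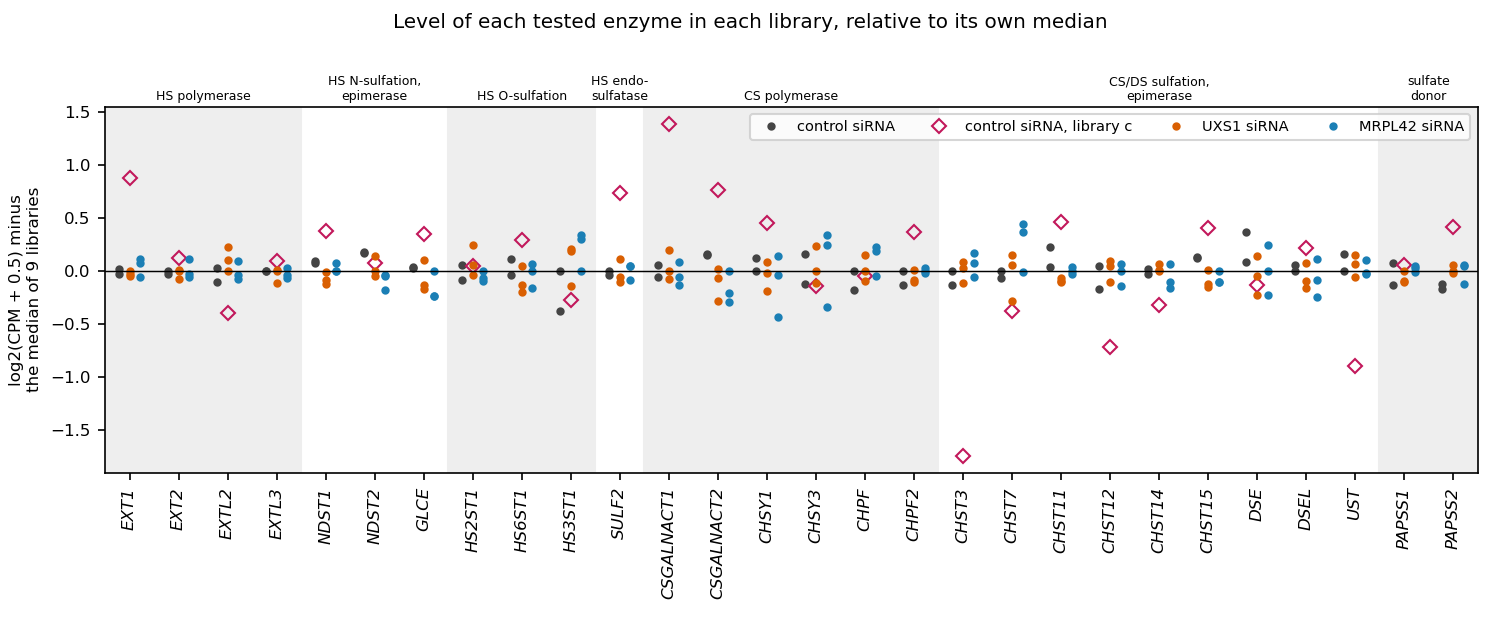
Level of each of the 28 tested enzymes in each library as log2(CPM + 0.5) minus the median of that gene over the 9 libraries, with control library c as open diamonds. The diamonds reach furthest from 0 for CSGALNACT1, EXT1, CSGALNACT2 and SULF2 above and for CHST3 and UST below, while the other 8 libraries lie close together.

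CSGALNACT1 was at 6.29, 6.85 and 18.0 CPM in the control, and at 5.94 to 7.62 CPM over the 6 siRNA libraries of the other groups. EXT1 was at 134, 139 and 253 CPM in the control, and at 132 to 149 CPM in those 6. SULF2 was at 20.2, 19.7 and 34.0 CPM, and at 18.8 to 21.9 CPM in those 6. For each of these 3 genes, control libraries a and b sat among or beside the UXS1 and MRPL42 siRNA libraries, and c alone was high.

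CHST3 showed the reverse, at 23.2, 21.1 and 6.58 CPM in the control and 21.5 to 26.2 CPM in those 6 libraries. UST was at 13.4, 12.0 and 6.21 CPM in the control and at 11.4 to 13.3 CPM in those 6. CHST12 was also lowest in c, at 26.7, 22.9 and 15.5 CPM. CHST11 and CHST15, of the same group of sulfotransferases, were instead highest in c.

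CSGALNACT1 and CHST3 carried the lowest and the highest fold change of the 28 enzymes in both comparisons with the control, without passing the test. The log2 fold changes of CSGALNACT1 were -0.61 for UXS1 and -0.70 for MRPL42 siRNA with all libraries, and 0.04 and -0.04 without control library c. For CHST3 they were 0.46 and 0.52, and 0.06 and 0.13 without it. EXT1 moved from -0.38 and -0.31 to -0.03 and 0.04, SULF2 from -0.30 and -0.28 to -0.01 and 0.02, and UST from 0.24 and 0.20 to -0.05 and -0.08. Without that library, still no member passed the adjusted threshold in either comparison, while 1.58% of tested genes did for UXS1 siRNA and 1.33% for MRPL42 siRNA. The 4 members with an unadjusted p below 0.05 for UXS1 siRNA were the same, and for MRPL42 siRNA they were NDST2, HS3ST1, CSGALNACT2 and CHST15, against 19.2% and 19.6% of all genes.

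**Figure D4:**
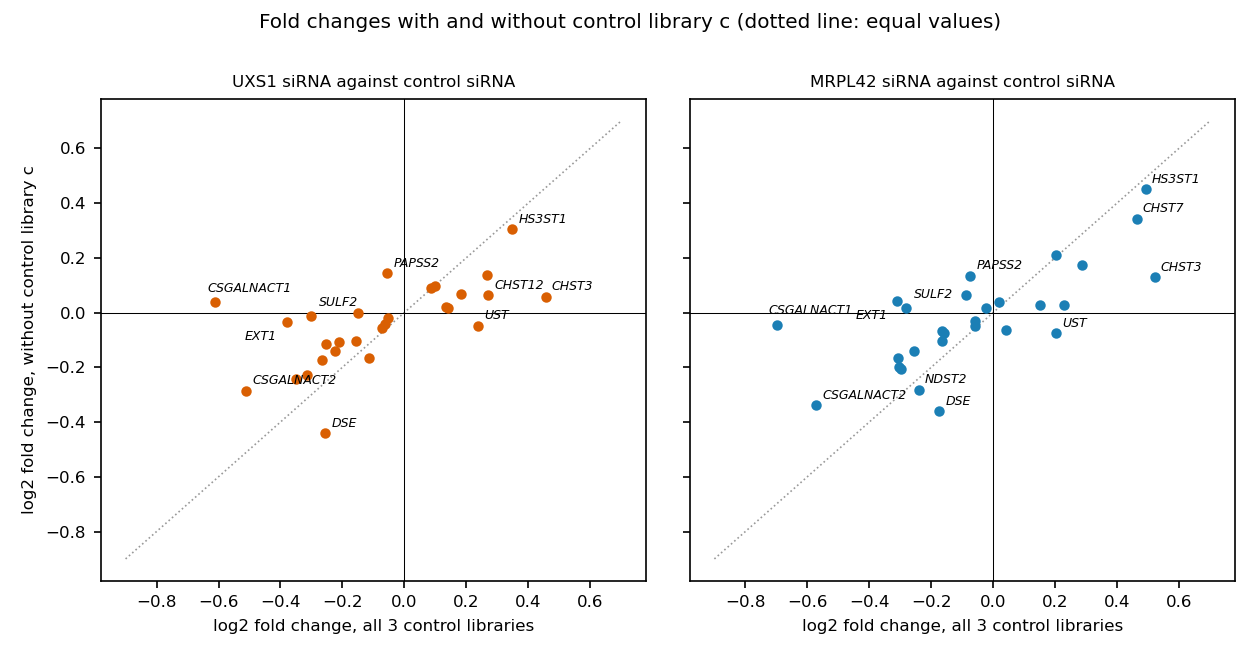
Log2 fold change of the 28 tested enzymes with all 3 control libraries (horizontal) and without control library c (vertical), for UXS1 siRNA (left) and MRPL42 siRNA (right), with a dotted line of equal values. CSGALNACT1, EXT1, SULF2 and CHST3 fall onto or near the horizontal line at 0, while CSGALNACT2 and HS3ST1 keep values of -0.29 and 0.30 on the left and -0.34 and 0.45 on the right. DSE, with at most 20 counts per library, moves away from 0, from -0.26 to -0.44 on the left and from -0.17 to -0.36 on the right.

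Proportions within pairs of enzymes that share a step were taken from CPM per kilobase. For several pairs, but not for DSE and DSEL, control library c lay outside the range of the other 8 libraries. CHST11 made up 61.3%, 61.8% and 76.4% of the sum of CHST11 and CHST12 in control libraries a, b and c, 56.2%, 54.9% and 58.2% after UXS1 siRNA, and 56.6%, 61.4% and 58.2% after MRPL42 siRNA. The UXS1 siRNA libraries lay below all control libraries (two-sided exact permutation test, p = 0.1, the smallest that 3 against 3 can give), and the MRPL42 siRNA libraries overlapped the control (p = 0.2 by the same exact test). EXT1 made up 39.7% of EXT1 and EXT2 in control library c and 27.2% to 29.4% in the other 8. CHST3 made up 37.5% of CHST3 and CHST7 in c and 53.4% to 67.5% in the others. NDST1 of NDST1 and NDST2 was 73.9% to 75.5% after UXS1 siRNA and 76.6% to 78.3% after MRPL42 siRNA, without overlap (exact permutation p = 0.1). PAPSS1 of both PAPS synthases was 53.0% to 53.8% and 53.9% to 57.9% in the same groups (exact permutation p = 0.1). CHPF of CHPF and CHPF2 was 44.2% to 51.4% in the control and 51.5% to 53.9% after UXS1 siRNA (exact permutation p = 0.1). In all, 8 pairs were compared in 3 comparisons each, the smallest Benjamini-Hochberg adjusted value over them was 0.6, and 3 libraries against 3 cannot reach 0.05.

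The genes around the chain enzymes were read from 5 further lists, and 0 of their genes passed the adjusted threshold in any of the 3 comparisons by edgeR with all libraries. In the list of sugar nucleotide and linker enzymes, 9 of 10 genes were tested, with medians of 0.03 for UXS1 and -0.03 for MRPL42 siRNA. The smallest p for UXS1 siRNA was that of XYLT2, a xylosyltransferase that starts the linker (log2 fold change -0.14), then B4GALT7, the first linker galactosyltransferase (0.20). For MRPL42 siRNA it was that of UGDH, which makes UDP-glucuronic acid (-0.22), then B3GAT3, which completes the linker (0.28). All 12 genes of the transport list were tested, with medians of -0.07 and -0.02. That list also holds BPNT1 and BPNT2, which do not encode transporters. In it BPNT1, a phosphatase of the by-product of PAPS use, was at 0.22 and the sulfate transporter SLC26A1 at 0.25 for UXS1 siRNA. SLC26A1 was at 0.32 and the PAPS transporter SLC35B2 at 0.13 (0.07 without control library c) for MRPL42 siRNA. With library weights in limma-voom, BPNT1 passed for UXS1 siRNA, and UGDH, B3GAT3 and SLC26A1 for MRPL42 siRNA (adjusted p between 0.0154 and 0.0495). The last 3 also passed with MRPL42 siRNA library b and control library c both left out (edgeR adjusted p between 0.0265 and 0.0356).

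Of 13 HS core proteins 9 were tested, with medians of -0.05 and 0.04. The syndecan SDC4 was at 79.3, 84.2 and 189 CPM in the control and 72.2 to 77.3 CPM after UXS1 siRNA, so its log2 fold change of -0.65 became -0.14 without control library c. The other named genes were AGRN, the basement membrane proteoglycan agrin, at -0.24 for UXS1 siRNA, and the syndecans SDC3 and SDC4 at 0.16 and -0.53 for MRPL42 siRNA. AGRN was at -0.14 without control library c, and SDC4 then at -0.01 for MRPL42 siRNA. SDC3 passed for MRPL42 siRNA with library weights in limma-voom (adjusted p = 0.0324). Of 14 CS and DS core proteins 9 were tested, with medians of -0.08 in both comparisons. VCAN, the large matrix proteoglycan versican, was at 107, 117 and 329 CPM in the control and 80.7 to 89.3 CPM after UXS1 siRNA. Its log2 fold changes were -1.12 for UXS1 and -0.98 for MRPL42 siRNA. Without control library c they were -0.41 and -0.27, and the first then passed the adjusted threshold (edgeR adjusted p = 0.0200), the second not (0.0996). TGFBR3, betaglycan, was at -0.55 and -0.53, and at -0.27 and -0.23 without that library. With library weights in limma-voom 1 gene of this list passed as higher and 1 as lower for UXS1 siRNA, against 10.4% of genes. Without control library c and MRPL42 library b together 1 passed as lower for each siRNA, against 9.47% and 14.6%. With the length offset and without control library c, 1 passed as lower for UXS1 siRNA and 1 as higher for MRPL42 siRNA, against 317 and 291 of 12747 genes.

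All 19 chain degradation genes were tested, with medians of 0.03 for both siRNAs. The hyaluronidases HYAL1 and HYAL2 had the smallest p in both comparisons, at 0.63 and 0.17 for UXS1 siRNA and 0.58 and 0.32 for MRPL42 siRNA (edgeR adjusted p between 0.135 and 0.275). HYAL1 without control library c was at 0.40 for UXS1 siRNA and 0.37 for MRPL42 siRNA. HYAL2 passed the adjusted threshold for MRPL42 siRNA by DESeq2 (adjusted p = 0.0165), without MRPL42 siRNA library b (edgeR adjusted p = 0.0254), without that library and control library c together (edgeR adjusted p = 0.0106), and with library weights in limma-voom (adjusted p = 0.00948). With those weights HYAL1 passed in both comparisons with the control (limma-voom adjusted p = 0.0426 for UXS1 and 0.0302 for MRPL42 siRNA). Between UXS1 and MRPL42 siRNA, the 2 smallest p of each list belonged to UGDH (0.15) and B3GAT3 (-0.14), BPNT1 (0.11) and the UDP-galactose transporter SLC35A2 (-0.11), the glypican GPC1 (-0.17) and SDC3 (-0.11), the core proteins SRGN (0.08) and BCAN (-0.29), and HYAL2 (-0.15) and HYAL4 (0.40), none past the adjusted threshold.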

How the data were processed

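The authors deposited 1 table with an estimated count and a TPM value per gene for 9 poly(A) libraries. Only the estimated counts were used. The other 9 value columns were left out, since the column letters a, b and c are tied to no repeat number and 1 measure per library was kept. Columns were tied to groups by name, reading USX1 as UXS1 with 2 letters exchanged. The submitters' processing notes list the tools fastp, Bowtie2, HISAT2 and edgeR and the hg38 build without versions or roles. The counting program and annotation were not given in the sources used here. In each library 83.6% to 84.9% of the deposited estimated counts above 0 were whole, and all were rounded. No library was a copy of another (lowest chi-square per gene 3.34).

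Genes were filtered with filterByExpr, scaled by TMM and tested two-sided with edgeR 4.0.16 (R 4.3.3) by the quasi-likelihood test, with 1 mean per group over 9 libraries. P-values were adjusted by the Benjamini-Hochberg method over all 12657 tested genes, at a threshold of 0.05. CPM used the TMM-scaled total of tested genes. GENCODE 29 gave lengths and positions for 20128 of 20379 genes, and RefSeq gave promoter windows. The procedure was tested on counts simulated from the means and the gene-wise spread of these data. That simulation held no outlying library and no slope on transcript length, so it does not cover their part in the results. Alternatives used DESeq2 1.42.0, limma 3.58.1 (voom), other scalings, filters, a length offset and left-out libraries. Values per library are given for the targets, the 4 members with the smallest p in each comparison and the most abundant member of each step, and from each further list 2 genes with the smallest p are named. Members set apart by control library c, VCAN and SDC4 values per library, and NDST1 and PAPSS1 shares were chosen after their values were seen. The members and lists were chosen with earlier results of these data known.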

Additional observations from a re-analysis of the deposited data

How the results depend on the processing

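No paired analysis was possible because the library letters carry no repeat number. No member passed the threshold by DESeq2, by limma-voom without weights, or by edgeR with DESeq2 size factors, no filter, only 2 groups, the length offset or any 1 library left out. With library weights in limma-voom 1 member passed for UXS1 siRNA (CHST15 -0.23) and 3 for MRPL42 siRNA (CSGALNACT2 -0.42, CHPF 0.28 and CHST15 -0.23). Without control c and MRPL42 b together, chosen after seeing the data, 2 passed for MRPL42 siRNA (CSGALNACT2 -0.43, CHPF 0.29). Calls over all genes were 2 for UXS1 and 0 for MRPL42 siRNA by edgeR with all libraries, and the same by limma-voom without weights. They were 454 and 678 by DESeq2, 1315 and 1897 with library weights, 253 and 0 with only 2 groups, and 8 and 2 with the length offset. Left-out libraries gave 201 and 169 without control c, 355 and 810 without MRPL42 b, 1206 and 1856 without both, and 0 with any other 1 library left out. With the offset and without control c they were 317 and 291. The cause was not tested.

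The median log2 fold change over the members for UXS1 siRNA was -0.016 with library weights, -0.028 without control c and MRPL42 b, and 0.018 with the length offset and without control c (17 above 0; chosen after seeing the data), and ran from -0.13 to -0.028 with 1 library left out. For MRPL42 siRNA it was -0.0087 with library weights, -0.018 with the length offset and 0.039 with the offset and without control c (17 above 0), and ran from -0.18 to -0.038 with 1 library left out, furthest from 0 without control b. Between the siRNAs it ran from -0.073 to 0.022. Tested members have longer transcripts (median 4374 bases) than tested genes (2993 bases). Relative to each gene's mean, log2 CPM rose by 0.047 to 0.12 per doubling of transcript length in the control libraries. The slope was -0.070 to -0.0062 after UXS1 siRNA and -0.099 to 0.040 after MRPL42 siRNA. The cause of these slopes was not tested. Above 1 CPM per kilobase stood 25 members whichever control library was left out, and 26 were above 1 CPM.

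Of 60 log2 fold changes of single genes, 36 kept their sign under the 18 alternatives. For UXS1 siRNA the sign changed to EXT2 0.0019, SULF2 0.016, CSGALNACT1 0.037, CHST7 -0.060 and PAPSS2 0.15 with library weights, to EXTL3 0.021 with the length offset, to EXT1 0.028, EXT2 0.013, EXTL3 0.023, SULF2 0.042, CSGALNACT1 0.085, CHPF2 0.045 and PAPSS2 0.19 with the offset and without control c, and to CSGALNACT1 0.038, UST -0.049 and PAPSS2 0.14 without control c and MRPL42 b. For MRPL42 siRNA it changed to EXT1 0.018, SULF2 0.012, CHPF2 0.067, UST -0.050 and PAPSS2 0.14 with library weights, to EXT2 0.011, EXTL3 0.047 and HS2ST1 0.045 with the offset, to EXT1 0.12, EXT2 0.053, EXTL3 0.047, NDST1 0.012, HS2ST1 0.031, SULF2 0.079, CSGALNACT1 0.0078, CHPF2 0.12, CHST14 -0.015, UST -0.018 and PAPSS2 0.19 with the offset and without control c, and to EXT1 0.0045, CHSY3 -0.050, CHPF2 0.050, CHST14 -0.039, UST -0.12 and PAPSS2 0.10 without control c and MRPL42 b. With 1 library left out it changed for UXS1 siRNA in CSGALNACT1 (-0.87 to 0.038), CHSY3 (-0.064 to 0.41), UST (-0.047 to 0.45) and PAPSS2 (-0.16 to 0.15), and for MRPL42 siRNA in EXT1 (-0.47 to 0.043), EXT2 (-0.077 to 0.017), SULF2 (-0.42 to 0.016), CHPF2 (-0.19 to 0.064), CHST14 (-0.062 to 0.11), DSE (-0.38 to 0.064), UST (-0.075 to 0.42), PAPSS1 (-0.045 to 0.059) and PAPSS2 (-0.18 to 0.13). That library was control c, except UXS1 b for CHSY3 and control a for DSE and PAPSS1. For EXT2 MRPL42 a and for CHST14 MRPL42 c did so too. Low counts limit CHSY3 and DSE, at most 14 and 20 per library.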
